A study of Mus musculus with 6 samples.

Results

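The core genes of the circadian clock were examined in bulk skin RNA of 6 mice, 3 with the tight skin mutation (TSK) and 3 wild-type littermates (WT), as a check on whether the skin of the 6 mice was taken at a like point of the daily cycle. The skin came from the shaved back. The members were chosen by name: Arntl, Clock, Npas2, Per1, Per2, Per3, Cry1, Dbp, Nr1d1 and Nr1d2. All 10 were found in the deposited tables among 55291 genes, and all 10 passed the filter on low counts, which left 19971 genes to be tested. TSK mice carry a duplication within one copy of Fbn1, the gene of the microfibril protein fibrillin 1, in every tissue, and the line was kept by crossing to C57BL/6. The sample labels give strain C57BL/6 and an age of 6 to 8 weeks for both groups, and no other treatment. The time of day at which the skin was taken, the light schedule and the order in which the mice were handled are not given in the sources used here, and no library of known time belongs to the series, so no value below was turned into an hour.

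The clock is a loop of transcription that runs in nearly every cell. Arntl (also called Bmal1) pairs with Clock or its relative Npas2, and the pair switches on genes through a DNA letter motif called the E-box. Among these genes are Per and Cry, whose proteins shut the pair off, the nuclear receptors Nr1d1 and Nr1d2 (REV-ERB alpha and beta), which repress Arntl and Npas2, and Dbp, which activates genes through a motif called the D-box. In tissues of mice kept in a light and dark cycle, RNA of Nr1d1, Nr1d2, Dbp and Per3 is known to be highest in the light hours, Per1 and Per2 around dusk, Cry1 late in the night, and Arntl and Npas2 around the end of the night. In skin, the clock is known to run in keratinocytes, fibroblasts, hair follicles, fat and the muscle sheet under the dermis.

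The motifs by which the members regulate each other were read in RefSeq promoter windows of GRCm38.p6, each with 250 bases before and 50 after a start site. Of the members 9 had at least 1 window (13 windows in all), and Per2 had none. The motifs searched on both strands were the E-box CACGTG, its variant CACGTT, the D-box TTATGTAA and TAGGTCA, the core of the element shared by ROR and REV-ERB receptors. No match overlapped another. Shown is 1 member for each motif, with the match in capitals, in the direction of the gene, as the 250 bases before the start site or, for Arntl, 30 bases around the match. Per1 (chr11:69098699-69098948, plus strand) held an E-box 166 bases before its start site, Per3 (chr4:151044666-151044915, minus strand) held D-boxes 205 and 158 bases before it, Nr1d1 (chr11:98775378-98775627, minus strand) held the E-box variant, read on the other strand, 28 bases before it, and Arntl (chr7:113207529-113207558, plus strand) held the ROR core 30 bases past a start site.
Per1: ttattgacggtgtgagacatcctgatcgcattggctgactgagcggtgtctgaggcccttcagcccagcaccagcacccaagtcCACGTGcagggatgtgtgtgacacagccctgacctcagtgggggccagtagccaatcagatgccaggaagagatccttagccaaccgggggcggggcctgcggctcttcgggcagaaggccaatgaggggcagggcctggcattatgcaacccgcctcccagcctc
Per3: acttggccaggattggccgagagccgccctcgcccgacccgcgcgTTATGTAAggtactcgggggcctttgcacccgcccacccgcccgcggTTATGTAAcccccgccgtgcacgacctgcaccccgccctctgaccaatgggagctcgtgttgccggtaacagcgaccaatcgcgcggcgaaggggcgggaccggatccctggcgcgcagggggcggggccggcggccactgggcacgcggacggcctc
Nr1d1: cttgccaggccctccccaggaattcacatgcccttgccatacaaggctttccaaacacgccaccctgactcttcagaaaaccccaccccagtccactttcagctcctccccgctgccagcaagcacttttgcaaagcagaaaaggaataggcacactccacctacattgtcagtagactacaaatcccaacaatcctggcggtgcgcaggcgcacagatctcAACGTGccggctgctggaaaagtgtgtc
Arntl: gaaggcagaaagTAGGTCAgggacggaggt
Over all 32851 windows of this length in the table, 7.15% held the E-box, 4.68% the variant, 0.938% the D-box and 2.61% the ROR core. Among the members, Cry1 also held an E-box and the variant, so that 2 of 9 members held the E-box, 2 the variant, 1 the D-box and 1 the ROR core. These counts are per member over its windows (13 in all), while the shares are per window, so the 2 are not directly comparable. A match describes the letters of the window and no binding was measured.

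On mm10 the activators lie at chr7:113207465-113314126 (Arntl, plus strand), chr5:76209868-76304792 (Clock, minus strand) and chr1:39193731-39363236 (Npas2, plus strand). The repressors lie at chr11:69095217-69109960 (Per1, plus strand), chr1:91415982-91459324 (Per2, minus strand), chr4:151003652-151044665 (Per3, minus strand) and chr10:85131700-85185064 (Cry1, minus strand). Dbp lies at chr7:45705088-45710203 on the plus strand, Nr1d1 at chr11:98767932-98775333 and Nr1d2 at chr14:18204054-18239127, both on the minus strand. The values are per gene and do not tell isoforms apart.

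Libraries held 17561453 to 19219814 counts. Fbn1, read first as a check of the labels, was at 262 to 289 CPM (counts scaled to 1000000 per library) in WT and 1538 to 2284 CPM in TSK, with no overlap. On sex the sources differ, female in the labels and male in the study's methods. The Y-linked gene Ddx3y was at 56.7 CPM or more in each of the 6 libraries, so all 6 mice were read as male. The tissue was mixed. The 12 skeletal muscle marker genes took 16.2% to 23.5% of the counts in WT and 14% to 16% in TSK, 9 fibroblast genes 0.639% to 0.969% and 2.06% to 4.78%, 8 adipocyte genes 0.0394% to 0.0555% and 0.0701% to 0.385%, 8 keratinocyte genes 0.303% to 0.594% and 0.351% to 0.616%, and 8 hair follicle genes 0.000970% to 0.00194% and 0.00428% to 0.00509%. Krt71, a keratin of the follicle's inner sheath, was at 0 in WT 3, and no other marker was at 0 in any library. In such mixed tissue, fewer cells of a type and less RNA per cell cannot be told apart.

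The members fell into tiers of level that were alike in the 6 libraries. Levels of different genes were compared as CPM per kilobase of exon. Dbp stood highest with a mean of 34.2 over the 6 libraries (25.9 to 46.3), followed by Per1 with 31.1 (24.0 to 39.2), Nr1d2 with 27.2 (24.7 to 32.3) and Nr1d1 with 26.0 (20.9 to 31.1). The ranges of these 4 genes overlapped, and all lay above those of Per2, with 10.3 (6.26 to 14.9), and Per3, with 9.47 (6.92 to 12). Clock at 3.53 (3.02 to 3.96) and Cry1 at 3.26 (2.13 to 3.88) overlapped in turn. Arntl at 1.01 (0.698 to 1.21) and Npas2 at 0.424 (0.235 to 0.582) were the lowest, and overlapped neither each other nor any other member.

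**Figure D1:**
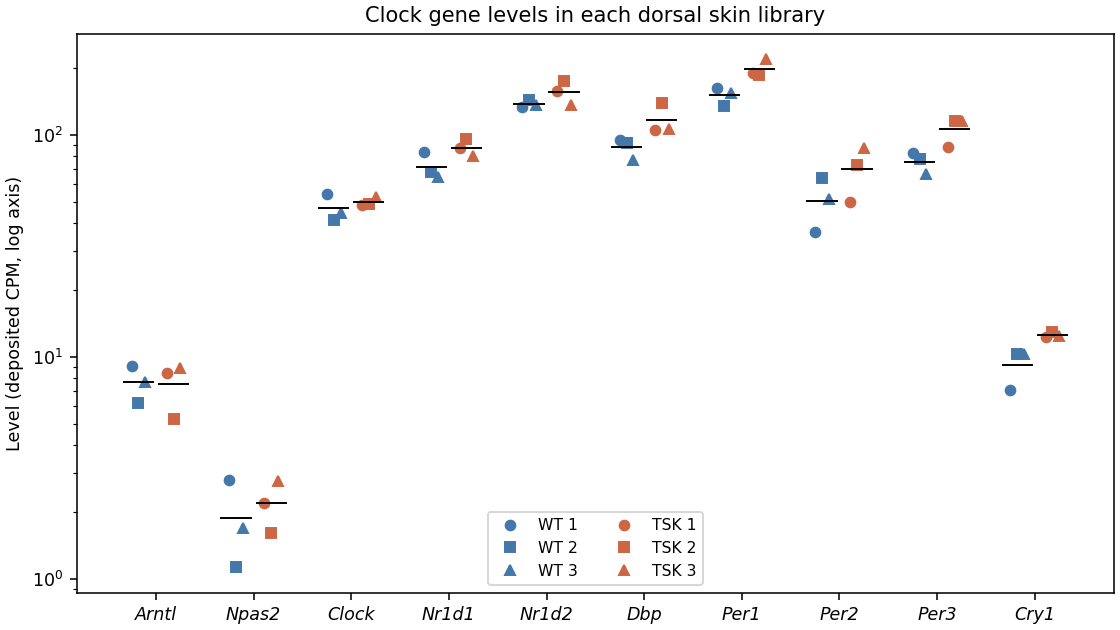
Level of the 10 clock members in each library, in deposited CPM on a log axis, with WT mice in blue, TSK mice in orange, 1 marker shape per replicate number and a black line at each group mean. Dbp was at 77.4 to 139 CPM and Arntl at 5.25 to 9.11 CPM, and for each member the highest library exceeded the lowest by 2.47 times (Npas2) or less.

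Of the activators, Arntl was at 9.11, 6.23 and 7.70 CPM in WT 1 to 3 and at 8.47, 5.25 and 8.96 CPM in TSK 1 to 3. The groups overlapped, and the lowest value was that of TSK 2. The log2 fold change, TSK minus WT, was -0.29 (SE 0.22, 95% interval -0.80 to 0.22, edgeR adjusted p = 0.527). Npas2, which can take the place of Clock, was at 2.79, 1.13 and 1.70 CPM in WT and 2.20, 1.61 and 2.76 CPM in TSK. These levels rested on 21 to 52 counts per library, and the interval of the log2 fold change, -0.76 to 0.73, was the widest of the members (edgeR adjusted p = 0.982). Clock itself, which hardly cycles in many tissues, was at 54.3, 41.4 and 44.5 CPM in WT and 48.5, 49.1 and 52.6 CPM in TSK. It was the steadiest member within a group after TMM scaling (which rescales library sizes so that a few very abundant genes weigh less), with an SD of 0.04 in both groups on the log2 scale. On that scale the TSK libraries lay below the WT libraries, and the fold change was -0.17 (SE 0.10, 95% interval -0.41 to 0.07, edgeR adjusted p = 0.41).

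Of the genes that the activators switch on, Dbp was at 94.9, 92.4 and 77.4 CPM in WT and 105, 139 and 106 CPM in TSK. The TSK libraries were above the WT libraries in deposited CPM, with TSK 2 the highest, and overlapped them after TMM scaling. Its log2 fold change was 0.12 (SE 0.16, 95% interval -0.24 to 0.48, edgeR adjusted p = 0.732). Nr1d1 was at 83.4, 68.4 and 64.4 CPM in WT and 87.0, 95.6 and 80.4 CPM in TSK, overlapping between groups, with a log2 fold change of 0.01 (SE 0.13, 95% interval -0.28 to 0.30, adjusted p = 0.976). Nr1d2 was at 134, 144 and 137 CPM in WT and 157, 175 and 136 CPM in TSK, again overlapping, with a log2 fold change of -0.11 (95% interval -0.49 to 0.26, edgeR adjusted p = 0.752). Exons of Dbp share 539 bases with Sphk2 and exons of Nr1d1 share 263 bases with Thra, each on the other strand. The libraries were stranded, but the strand setting of the counting is not given in the sources used here. Sphk2 was at 22.1 to 33.4 CPM and Thra at 42.2 to 67.5 CPM.

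Of the repressors, Per1, which also answers quickly to glucocorticoids and other signals, was at 163, 135 and 155 CPM in WT and 190, 187 and 220 CPM in TSK. The groups did not overlap in deposited CPM and overlapped after TMM scaling, with a log2 fold change of 0.12 (SE 0.13, 95% interval -0.18 to 0.42, edgeR adjusted p = 0.665). Per2 varied most among the members with over 5 CPM, at 36.7, 63.9 and 51.2 CPM in WT and 50.1, 73.0 and 87.5 CPM in TSK. WT 1 was the lowest and TSK 3 the highest, and the groups overlapped. Its log2 fold change of 0.15 had a wide interval, from -0.49 to 0.79 (SE 0.28, edgeR adjusted p = 0.812). Per3 was at 82.8, 77.9 and 66.4 CPM in WT and 88.0, 115 and 115 CPM in TSK, and had the highest log2 fold change of the members, 0.20, which did not pass the test (SE 0.15, 95% interval -0.13 to 0.54, adjusted p = 0.487). Cry1 was at 7.12, 10.3 and 10.3 CPM in WT and 12.3, 13 and 12.4 CPM in TSK. Its libraries did not overlap in deposited CPM and did so after TMM scaling, where WT 1 alone lay low, and its log2 fold change was 0.14 (95% interval -0.36 to 0.63, edgeR adjusted p = 0.779).

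No member passed an adjusted p of 0.05 in edgeR's quasi-likelihood test, in either direction (0 of 10 higher, 0 of 10 lower), where 3.39% of all tested genes did, 2.71% higher and 0.681% lower. Without adjustment, 0 members had a p below 0.05, against 20.0% of all genes. With library size only the count was 4 (Per1, Per3, Cry1 and Dbp), against 5058 of 19971 genes, and limma at either pseudocount gave the same 4. DESeq2 called 0 members, against 7.48% of the genes it tested (5.50% higher). With edgeR at the study's thresholds (adjusted p below 0.01 and fold above 2.5) the count was 0 against 0.290%. With 10 members, a share of 3.39% amounts to less than 1 gene. The fitted log2 fold changes were above 0 for 6 members and below 0 for 4, with a median of 0.06, where the median of all tested genes was -0.03. With library size only, and with limma at either pseudocount, 9 members were above 0 and Arntl alone was below it. In deposited CPM, 4 of the 10 members (Per1, Per3, Cry1 and Dbp) were higher in every TSK library than in any WT library, but this held for 29.1% of all tested genes. No member was lower without overlap (2.58% of all genes), and 31.6% of genes were apart in either direction. After TMM scaling it held for 0 members (14.1% of all genes), and Clock alone was lower without overlap (10.6% of all genes, 24.7% in either direction). Scaling thus moved the members as it moved genes in general: without TMM the median of all tested genes was 0.25. The intervals do not show that the levels were equal. They reach from -0.80 in Arntl and -0.76 in Npas2 to 0.79 in Per2, and those of Dbp and Nr1d1 reach 0.48 and 0.30.

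**Figure D2:**
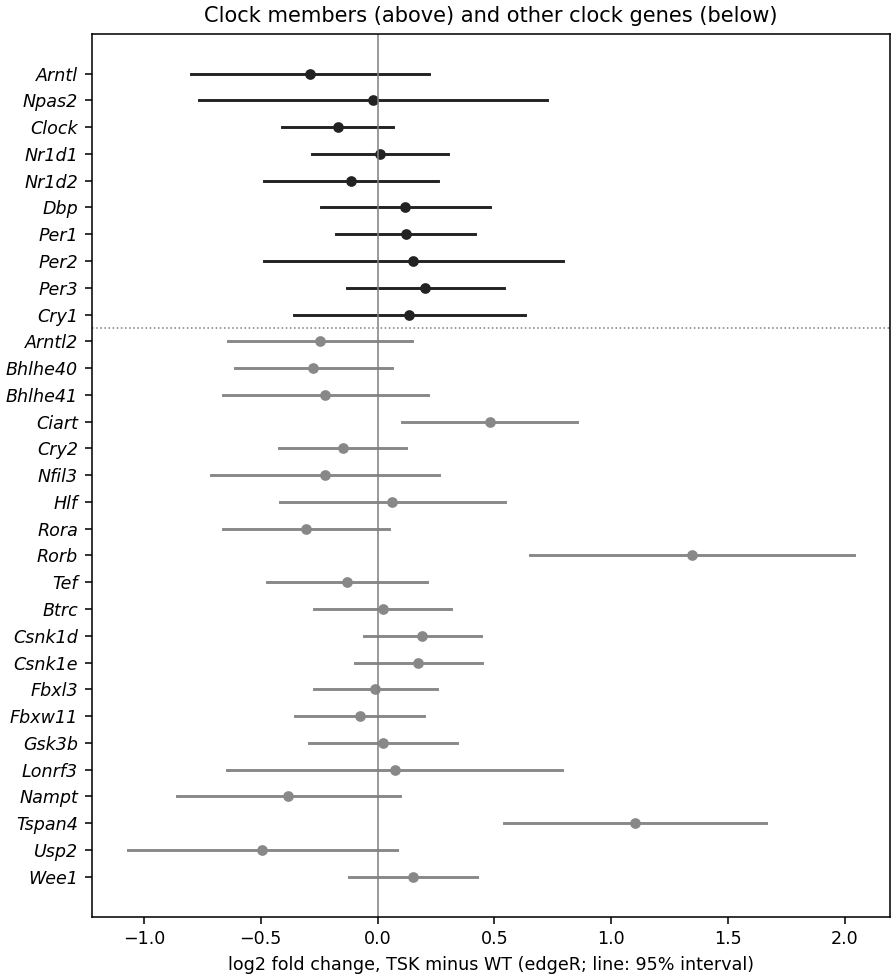
Log2 fold change, TSK minus WT, of the 10 members (black, above the dotted line) and of 21 other tested clock genes (grey), as points with 95% intervals from edgeR. The intervals of all 10 members include 0, and Rorb (1.35) and Tspan4 (1.10) lie farthest from it.

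Because library scaling cancels in a difference between genes of the same library, the phase of the clock was described by such differences. The main measure was the mean log2 CPM of Nr1d1, Nr1d2, Dbp and Per3, which peak in the light, minus that of Arntl and Npas2, which peak near the end of the night. Its values were 4.23, 5.06 and 4.45 for the WT mice in order, then 4.57, 5.39 and 4.4 for the TSK mice. The groups overlapped. The means were 4.58 ± 0.43 in WT and 4.79 ± 0.53 in TSK (SD, n = 3), a difference of 0.21 that was smaller than either SD. TSK 2 decided its direction: without that library the difference was -0.09. Without WT 1 it was 0.03. As a score over the members it was given no test. Its size and its sign depend on how abundant and long these genes are, so that only its spread between libraries is read here.

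**Figure D3:**
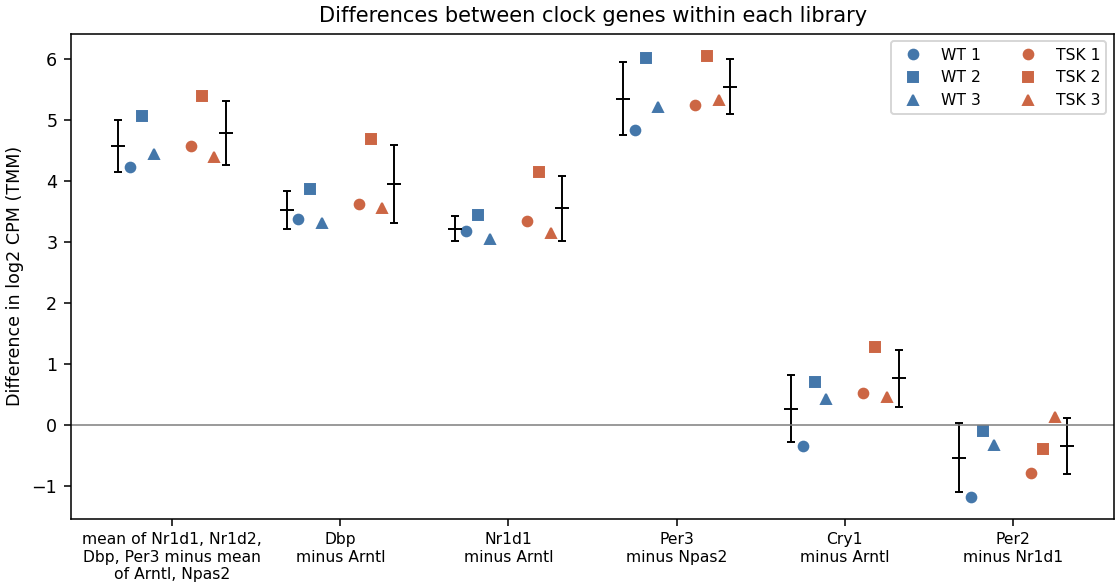
Differences in log2 CPM (TMM) between clock genes of the same library, with 1 point per mouse (WT blue, TSK orange) and the mean ± SD of each group in black beside them. The groups overlapped in each difference, and WT 2 and TSK 2 stood highest in the main measure, at 5.06 and 5.39.

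Single pairs of genes shifted among the mice by different amounts. Dbp had 10.1 to 14.8 times the counts of Arntl in WT, and 11.8 to 26.4 times in TSK. The top value of 26.4 was that of TSK 2, and the other TSK libraries, at 12.4 and 11.8, lay within the WT range. Dbp minus Arntl on the log2 scale was 3.37, 3.87 and 3.31 in WT and 3.62, 4.69 and 3.55 in TSK. Dbp and Nr1d1, whose peaks are close in time, kept nearly the same distance in all libraries, with a log2 difference of 0.19 to 0.54. Other pairs were more spread. Per2 minus Nr1d1, which grows from the day towards the evening, was -1.18, -0.10 and -0.33 in WT and -0.79, -0.39 and 0.12 in TSK. WT 1 was the lowest and TSK 3 the highest, and the groups overlapped. Cry1 minus Arntl was lowest in WT 1 (-0.35) and highest in TSK 2 (1.28), with the other 4 libraries between 0.42 and 0.71. The mean of TSK was the higher in all 7 pairs computed, which share genes, by 0.07 (Per2 minus Per1) to 0.50 (Cry1 minus Arntl). For Dbp minus Arntl (0.43) and Nr1d1 minus Arntl (0.33) this exceeded the SD of WT (0.31 and 0.20) but not that of TSK (0.64 and 0.53), while Cry1 minus Arntl (0.50) exceeded the SD of TSK (0.46) but not that of WT (0.55). The groups overlapped in all 3. Without TSK 2 these 3 differences were 0.07, 0.02 and 0.23, and Per3 minus Npas2 and Per2 minus Per1 were below 0, at -0.07 and -0.01. WT 1 was the lowest library in Cry1 minus Arntl, Per3 minus Npas2 (4.84) and Per2 minus Per1 (-2.15). The pairs were not computed without WT 1 or any other library, so the part of single mice other than TSK 2 is not known.

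The pattern of each library is best seen after the mean of each gene over the 6 libraries is taken away. WT 1 stood apart through low Per2 (-0.70) and Cry1 (-0.61) with high Npas2 (0.47) and Arntl (0.25). TSK 2 showed the lowest Arntl (-0.65) with low Npas2 (-0.39) and the highest Dbp (0.30). WT 2 resembled TSK 2 in low Npas2 (-0.48) and raised Dbp (0.16), but its Arntl was at its mean (0.02). TSK 3 combined high Per2 (0.42) with the lowest Nr1d2 (-0.28). Within each group, therefore, libraries differed from each other in both arms of the loop, and Clock was the only member with all WT mice on one side of its mean and all TSK mice on the other. Tissue content differed among the same libraries. WT 1 held the least muscle RNA of the WT mice (16.2% against 22.3% and 23.5%) and the most keratinocyte RNA (0.594%, with Krt5 at 2802 CPM against 1392 and 1677 CPM). TSK 2 held by far the most adipocyte RNA (0.385%, against 0.0979% and 0.0701% in TSK 1 and 3), with Adipoq at 247 CPM. With a skeletal muscle score as a covariate, the log2 fold change of Per2 went from 0.15 to 0.72, of Cry1 from 0.14 to 0.66 and of Npas2 from -0.02 to -0.48, and none was called (edgeR adjusted p = 0.39, 0.188 and 0.619). The unadjusted p of Cry1 was then 0.00772 in edgeR, where 2795 of 19971 genes had such a p below 0.05. Only 9 of all genes were called with this covariate. The score nearly separated the groups, since WT 2 (12.93) and WT 3 (12.73) scored above every TSK mouse (11.91 to 12.14). WT 1, at 12, alone scored among the TSK mice, so the adjusted values rest heavily on that mouse. The part of keratinocyte and adipocyte content was not tested.

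**Figure D4:**
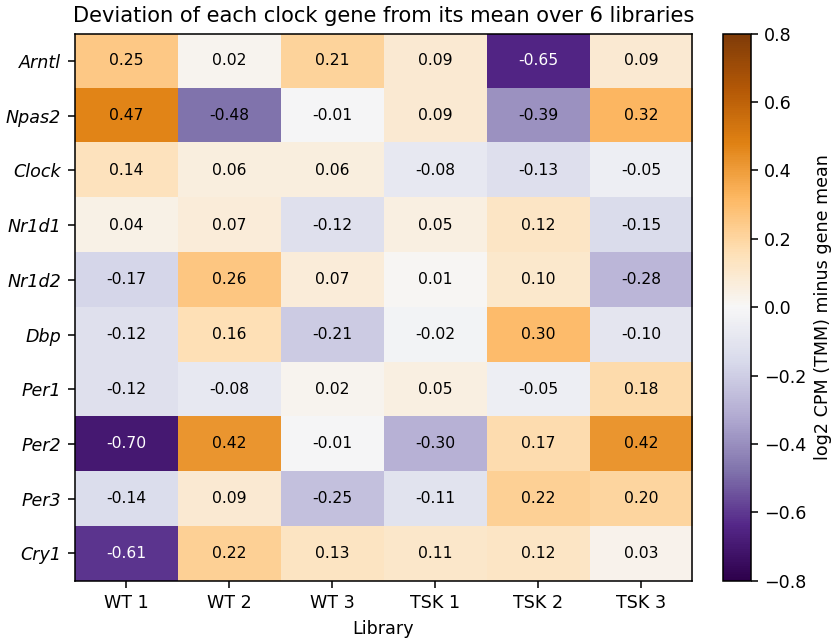
Deviation of each member from its own mean over the 6 libraries, in log2 CPM (TMM), with libraries in columns and genes in rows (orange above and purple below the mean). The strongest deviations were Per2 and Cry1 in WT 1 (-0.70 and -0.61) and Arntl in TSK 2 (-0.65).

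The spread of the members between mice was like that of other genes. The highest library exceeded the lowest by 1.2 times in Clock and Nr1d1, 1.23 in Per1, 1.38 in Per3, 1.42 in Dbp, 1.46 in Nr1d2, 1.80 in Cry1, 1.89 in Arntl, 2.0 in Npas2 and 2.17 in Per2, in TMM-scaled CPM. Over the 12017 tested genes with a mean of at least 5 CPM, the median was 1.52 and the middle range (quartiles) 1.32 to 1.92. Npas2 was below 5 CPM and is not among those genes. Per2 alone of the other 9 members lay above that range, and Clock, Nr1d1 and Per1 lay below it.

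Genes whose profile over the 6 libraries was most like that of Dbp or Arntl were sought by the root mean square difference of centred log2 CPM. Only tested genes with a mean of at least 5 CPM were ranked, which left out Npas2. Nearest to Dbp were Igip, Siae and Crim1, at differences of 0.058, 0.061 and 0.068. Of the members, Nr1d1 came at place 145 of 12016 genes (0.118), Per3 at place 352 (0.136) and Nr1d2 at place 1040. The other ranked members lay farther off, with Per1 at 3757, Cry1 at 5794 and Per2 at 9024. The kinase gene Gsk3b came at place 325, before Per3. A flat profile is 0.176 away from Dbp, since Dbp itself varied little, and 1346 genes lay nearer than that. Nearest to Arntl were Maskbp3, Trpv3 (a heat-gated ion channel of keratinocytes) and Krt6a (a keratin of the follicle and of activated epidermis), at 0.054, 0.063 and 0.097. In the order of nearness to the reversed profile of Arntl, Dbp came at place 144 (0.170), where a flat profile is 0.302 away and 2860 genes lay nearer to Arntl than that. In the order for the reversed profile of Dbp, Arntl came at place 1225. Over 6 libraries many genes come this close, and the order is a description only.

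Of 22 other clock genes on a list of the wider loop, 21 were tested and Fbxl21 was too low, at 0.229 to 0.417 CPM. In edgeR 0 of the 21 passed an adjusted p of 0.05 in either direction, while 3 (Tspan4, Rorb and Ciart) were higher with an unadjusted p below 0.05, as were 12.1% of all genes. The median log2 fold change was -0.01. Nearest to the threshold was Tspan4, a tetraspanin whose RNA cycles in many mouse tissues, at 6.78, 6.76 and 8.41 CPM in WT and 12.3, 24.1 and 21.3 CPM in TSK, without overlap (log2 fold change 1.10, SE 0.25, edgeR adjusted p = 0.0509). Rorb, a ROR receptor best known from neurons, was at 2.08, 2.0 and 2.89 CPM in WT and 4.39, 8.37 and 9.02 CPM in TSK, also without overlap (1.35 on the log2 scale, SE 0.30, adjusted p = 0.0522). Both passed in DESeq2, with adjusted p of 0.0019 and 0.00261, where DESeq2 called 5.50% of all genes higher. Over the list, 11 of 21 genes were higher without overlap in deposited CPM (29.1% of all genes) and 5 of 21 after TMM scaling (14.1% of all genes). The shares of the fibroblast, adipocyte and hair follicle lists were also higher in each TSK library than in any WT library. The fibroblast share was 2.10%, 2.06% and 4.78% in TSK 1 to 3 (0.639% to 0.969% in WT). The adipocyte share was 0.0979%, 0.385% and 0.0701% (0.0394% to 0.0555% in WT). The hair follicle share was 0.00509%, 0.00472% and 0.00428% (0.000970% to 0.00194% in WT). Tspan4 was highest in TSK 2 and Rorb in TSK 3. The part of tissue content was not tested.

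The remaining genes of the list did not pass the test either. Ciart, a repressor of the Arntl and Clock pair whose daily swing is among the strongest, was at 6.49, 4.47 and 5.77 CPM in WT and 8.47, 10.6 and 9.06 CPM in TSK. The groups did not overlap on either scale, but the log2 fold change of 0.48 (SE 0.16, 95% interval 0.11 to 0.86) did not pass the test (edgeR adjusted p = 0.151). Tef and Hlf, which act on the D-box as Dbp does, had log2 fold changes of -0.13 and 0.06, with adjusted p of 0.681 and 0.904 (edgeR). Nfil3, which opposes them, was at -0.22. Rora, a receptor that activates Arntl, was at -0.31 (edgeR adjusted p = 0.318). Cry2 was at -0.15, and the E-box-binding repressors Bhlhe40 and Bhlhe41 were at -0.28 and -0.22. Among the kinases and ligases that set the life of PER and CRY proteins, Csnk1d and Csnk1e were at 0.19 and 0.18, higher in each TSK library without overlap on both scales, and neither passed (adjusted p = 0.373 and 0.464, edgeR). The cycling outputs Usp2, Nampt and Wee1 were at -0.49, -0.38 and 0.15, and none of them passed.

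Signals that reset the clock or follow handling were read from 3 further lists, whose counts stand against 3.39% of all genes called in either direction and 20.0% with an unadjusted p below 0.05. Of 10 glucocorticoid-response genes 0 passed an adjusted p of 0.05 in edgeR, with a median log2 fold change of -0.09. Mt2 (-0.86) and Pdk4 (-0.64) had unadjusted p of 0.0152 and 0.0278 in edgeR. Fkbp5, Tsc22d3 and Klf9, which follow corticosterone closely, were at 0.17, -0.13 and -0.05. Of 8 genes that answer to temperature 0 passed (median -0.12), with Cirbp and Rbm3, the RNA-binding proteins induced by cold, at -0.14 and -0.30, and Hsph1 lower at an unadjusted p below 0.05 (-0.53). Of 8 immediate early genes 0 passed (median -0.33), with Egr2 at 0.75 and Fosb at -2.0 at an unadjusted p below 0.05, in opposite directions. Fosb was spread widely among the WT mice, at 14.9 ± 12.9 CPM (SD, n = 3) against 4.70 ± 2.44 CPM in TSK. Of the lists of tissue content, 3 of 9 fibroblast genes, 2 of 8 adipocyte, 5 of 8 hair follicle and 1 of 8 keratinocyte genes were called higher, against 2.71% of all genes, while 0 of 12 skeletal muscle genes passed. Of these muscle genes, Myh2, a myosin of fast oxidative fibres, had a log2 fold change of 1.26 and was higher in TSK without overlap (edgeR adjusted p = 0.067), while 10 had log2 fold changes below 0, 6 of them with an unadjusted p below 0.05 (1577 of all 19971 genes), and 6 were lower without overlap after TMM scaling (10.6% of all genes). The medians of the 5 lists were 1.24, 2.80, 1.67, 0.14 and -0.77.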

How the data were processed

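Bulk RNA was sequenced from dorsal skin of 3 TSK and 3 WT mice, 1 library per mouse, and groups were taken from the sample titles. The authors depleted ribosomal RNA, made stranded libraries, aligned single-end reads with STAR to mm10 and quantified Ensembl genes in Partek Flow (version 11.0, per the submitters' processing notes). The table that the authors deposited as raw counts holds estimated counts per gene, not normalized. Only 43.3% to 45.4% of its non-zero values were whole (within 0.001), so the values were rounded before testing, which had been planned for raw counts. The deposited CPM values, scaled by the authors to 1000000 per library, were used as levels.

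Members and lists were chosen with earlier results of these data known, and 1 gene of the wider clock list is not reported here. Genes kept by filterByExpr were tested with edgeR 4.0.16 (quasi-likelihood, TMM, R 4.3.3), with Benjamini-Hochberg adjustment over 19971 genes and a threshold of 0.05. Log2 CPM used a prior count of 2. Exon lengths and overlaps came from GENCODE M21, whose gene starts and ends matched the deposited table for every member (table ends lie 1 base past the gene). Named genes were the members, the listed genes, Fbn1 and the 3 nearest to Dbp and to Arntl. Ddx3y, Sphk2 and Thra were added outside this rule, as checks of sex and of exon overlap. Alternatives were DESeq2 1.42.0, limma 3.58.1 on log2(CPM + 1) and log2(CPM + 0.1), other scalings and filters, the study's thresholds, a muscle score, a replicate block and each library left out. Tests were first tried on simulated counts. Replicates are separate mice.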

Additional observations from a re-analysis of the deposited data

How the results depend on the processing

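The count of members called, 0 in each direction, was the same under every alternative tried, and 129 of 150 fitted values of the members kept direction and call, though not always size. The other 21 changed sign without being called. With library size only, Clock was at 0.10, Npas2 at 0.23 and Nr1d2 at 0.17. limma on log2(CPM + 1) gave 0.11, 0.18 and 0.17 for these genes and on log2(CPM + 0.1) 0.11, 0.27 and 0.17. These settings put the median of all genes at 0.25, 0.20 and 0.25. With the replicate block Npas2 was at 0.01, and with the muscle score Nr1d2 was at 0.14. The muscle score also gave the largest moves that kept their sign: Per2 went from 0.15 to 0.72, Cry1 from 0.14 to 0.66 and Npas2 from -0.02 to -0.48. Arntl, at -0.29, was at -0.02 with library size only. With 1 library left out, Arntl ran from -0.41 to -0.08 (without TSK 2), Per1 from 0.06 (without TSK 3) to 0.17, Per3 from 0.14 to 0.31 (without WT 2), Npas2 from -0.22 to 0.30, Per2 from -0.07 to 0.45, Cry1 from -0.06 to 0.30, Nr1d1 from -0.05 to 0.09, Nr1d2 from -0.19 to 0.00 and Dbp from -0.02 to 0.24. Sign changes came without WT 1 (Npas2 0.30, Per2 -0.07, Cry1 -0.06), WT 2 (Nr1d2 0.00), WT 3 (Nr1d1 -0.04), TSK 1 (Nr1d1 -0.01), TSK 2 (Npas2 0.16, Nr1d1 -0.05, Dbp -0.02) or TSK 3 (Per2 -0.02). The lowest adjusted p of a member over all alternatives was 0.0828 (Per3, limma). The main phase measure, a difference of 0.21, ran from -0.09 to 0.45 without 1 library and from 0.04 to 0.37 without 1 gene.

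Calls in the wider list rose from 0 to 2 (Rorb and Tspan4 each time) with library size only, with the size factors of DESeq2, with DESeq2, with limma at either pseudocount, with no low-count filter, with the replicate block and without TSK 1, and the range without 1 library was 0 to 2. Their adjusted p ran from 0.0019 to 0.211 for Tspan4 and from 0.00261 to 0.247 for Rorb. The cause was not tested. The count of all genes called, 678, was 1778 with library size only, 1544 with DESeq2, 1871 and 1860 with limma, 1387 with no low-count filter, 794 with the replicate block, 58 at the study's thresholds and 9 with the muscle score, and without 1 library it ran from 60 (without WT 3) to 1260 (without WT 1). Counts limit Npas2 most. Replicate numbers were shared by the groups, but same-numbered mice did not deviate together (correlations 0.0112, 0.167 and -0.0938), so the block has no basis in pairing; it left 0 members called.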
